A study of Mus musculus with 2 samples.

Results

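The genes described here are the 9 class I presentation genes H2-K1, H2-D1, H2-T23, B2m, Tap1, Tapbp, Psmb8, Psmb9 and Nlrc5. They were taken by symbol from the 18920 genes that both tables hold, whatever their values. Single cells came from the root and ascending part of the aorta of Fbn1C1041G/+ mice, which carry a missense allele of the fibrillin-1 gene and serve as a model of Marfan syndrome. One library is from mice given GLPG0187, which the labels call an integrin alpha-v inhibitor, each day between 6 and 16 weeks of age. The other is from mice given vehicle over the same weeks. Both groups carry the Fbn1 allele, were 16 weeks old at collection and were pools of males and females in equal numbers, and no wild-type mice are part of the design. Each group is a single library, so the differences below carry no test and no p-value, and treatment, animals and library preparation cannot be told apart.

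MHC class I molecules show peptides from inside a cell to CD8 T cells and natural killer cells. Immunoproteasome subunits cut the peptides, the TAP transporter carries them into the endoplasmic reticulum, tapasin loads them onto a heavy chain, and beta-2 microglobulin completes the complex. Most body cells carry class I, and interferons raise its genes through IRF1 and the transactivator NLRC5, which acts on class I promoters.

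Of the 9 genes, 7 lie on chromosome 17, B2m lies on chromosome 2 and Nlrc5 on chromosome 8 (GRCm38, GENCODE annotation), and all are annotated as protein-coding. H2-K1 spans chr17:33996017-34000347 on the minus strand, H2-D1 chr17:35262730-35267499 on the plus strand and B2m chr2:122147686-122153083 on the plus strand. H2-T23 spans chr17:36029773-36032855 (minus), Tapbp chr17:33915899-33929292 (plus), Psmb8 chr17:34197721-34201454 (plus) and Nlrc5 chr8:94434356-94527272 (plus). Tap1 (chr17:34187553-34197225, plus) and Psmb9 (chr17:34181987-34187764, minus) are transcribed away from each other and overlap by 212 bases at their starts. H2-T23, B2m, Tapbp, Psmb8 and Nlrc5 overlap other annotated genes, and whether counting used strand is not given here, so some of their reads may belong to those neighbours. The 250 bases before the RefSeq start of 3 of the genes that encode the class I complex, and of Tap1, are printed. In those 3 they hold letters through which this pathway is known to be switched on. The Tap1 window holds only 1 TGACG and 1 CCAAT, which are common among all genes. The printed bases are RefSeq sequences of GRCm38.p6, 5′ to 3′ on the gene's own strand. They come from chr17:34000348-34000597 (minus), chr17:35262844-35263093 (plus), chr2:122147437-122147686 (plus) and chr17:34187306-34187555 (plus) in turn. RefSeq and GENCODE starts differ, and the H2-D1 window lies inside the gene as GENCODE draws it.
H2-K1: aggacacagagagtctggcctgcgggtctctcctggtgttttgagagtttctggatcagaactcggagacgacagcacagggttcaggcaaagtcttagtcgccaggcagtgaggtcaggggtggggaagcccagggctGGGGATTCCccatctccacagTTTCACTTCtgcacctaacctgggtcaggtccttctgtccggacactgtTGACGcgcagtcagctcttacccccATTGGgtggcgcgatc
H2-D1: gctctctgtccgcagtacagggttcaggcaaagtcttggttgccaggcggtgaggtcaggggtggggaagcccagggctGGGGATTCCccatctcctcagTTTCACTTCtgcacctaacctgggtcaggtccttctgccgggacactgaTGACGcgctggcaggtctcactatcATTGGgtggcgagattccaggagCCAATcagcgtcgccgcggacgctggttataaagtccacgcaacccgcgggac
B2m: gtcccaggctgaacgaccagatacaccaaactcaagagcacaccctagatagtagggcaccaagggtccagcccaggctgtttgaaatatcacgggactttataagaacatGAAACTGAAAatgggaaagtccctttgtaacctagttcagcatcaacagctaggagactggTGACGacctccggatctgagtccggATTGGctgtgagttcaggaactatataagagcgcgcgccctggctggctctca
Tap1: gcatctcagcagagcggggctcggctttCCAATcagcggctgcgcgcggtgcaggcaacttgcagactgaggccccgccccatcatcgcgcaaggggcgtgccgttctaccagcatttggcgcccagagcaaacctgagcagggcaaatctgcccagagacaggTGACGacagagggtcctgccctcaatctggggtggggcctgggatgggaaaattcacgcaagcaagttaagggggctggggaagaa

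Capitals mark matches, on either strand, to letter patterns chosen after these sequences had been seen. H2-K1 and H2-D1 share GGGGATTCC, a match to the NF-kappa-B pattern GGGNNTTCC, and TTTCACTTC, which read on the other strand matches the interferon-response pattern GAANNGAAA. B2m holds GAAACTGAAA, a match to the related pattern with 1 more base, in which any 2 bases part 2 runs of GAAA. TGACG and ATTGG mark the X2 and Y boxes of the module that NLRC5 is known to use. In H2-K1, H2-D1 and B2m, TGACG and ATTGG stood exactly 20 bases apart. That arrangement was found for 26 of 27025 genes with RefSeq promoter windows of the same length (0.0962%), H2-M3 among them. The spacing, like the patterns, was chosen after these sequences had been seen. H2-K1, H2-D1 and B2m are themselves among the 26, so the share is a description and not a test. A gene was counted if any of its windows matched. The separate letters were common: GAANNGAAA was found for 7.3% of genes, the longer pattern for 3.46%, GGGNNTTCC for 5.61%, TGACG for 19.8% and CCAAT, the Y box on the other strand, for 37.5%. Of the 8 genes with a window in the table, 5 held TGACG and 7 held CCAAT or its reverse. Only 2 held GAANNGAAA, 2 the longer pattern and 2 GGGNNTTCC. A further pattern, the gamma-activated site TTCNNNGAA, was searched as well and was held by 1, Psmb8, against 8.13% of all genes. The windows of Tap1 and Psmb9 shared 225 bases, so their matches are not independent. Tap1 held TGACG and CCAAT but not the spaced arrangement, and no match to the interferon-response or NF-kappa-B patterns.

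The libraries held 4397 GLPG0187 cells and 2961 vehicle cells, of which 4349 and 2945 were used, and 5 cell barcodes occurred in both. Values are whole numbers whose totals per cell lie close together (12135 to 16719 in GLPG0187 cells and 12078 to 16187 in vehicle cells), so they are values corrected for depth and not raw counts. The depth behind a value is therefore unknown, and a gene's level is its share of a cell's corrected total. Cells were clustered without the 9 genes and without the other class I presentation, proteasome, regulator and interferon genes of the fixed lists. The leukocyte and class II lists were not left out of the clustering. Smooth muscle-like cells (1685 GLPG0187 and 846 vehicle cells) carried 10 of 10 markers in both of their clusters, fibroblast-like cells (1039 and 859) at least 11 of 12 in both of theirs, macrophage-like cells (340 and 179) 11 of 11 and endothelial-like cells (160 and 104) 11 of 11. Schwann-like cells (26 and 41) and dendritic-like cells (17 and 10) were few. A cluster led by Prss35, Tbx20 and Vcan (877 and 710) and one led by Chil1, Chad and Spp1 (205 and 196) met no naming rule and are called the Prss35 cluster and the Chil1 cluster. No cluster of lymphocytes was found. Of the 7 T cell markers in the tables, 2 or more were above 0 in 7 GLPG0187 cells and in 0 of 2945 vehicle cells.

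Across cell classes, class I genes were lowest in smooth muscle, the contractile cells that make up the aortic media. H2-K1, a classical heavy chain, had a mean value per cell of 2.03 in GLPG0187 and 1.63 in vehicle smooth muscle-like cells. The corresponding means were 9.18 and 3.76 in fibroblast-like cells, 30.9 and 13.9 in endothelial-like cells and 31.9 and 21.5 in macrophage-like cells. In both libraries all genes but Nlrc5 had their lowest mean in the smooth muscle-like class. Taken within a library, H2-K1 was 4.79-fold (GLPG0187) and 2.46-fold (vehicle) higher in fibroblast-like than in smooth muscle-like cells, 16.5-fold and 9.40-fold higher in endothelial-like cells, and 16.3-fold and 14.0-fold higher in macrophage-like cells.

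**Figure D1:**
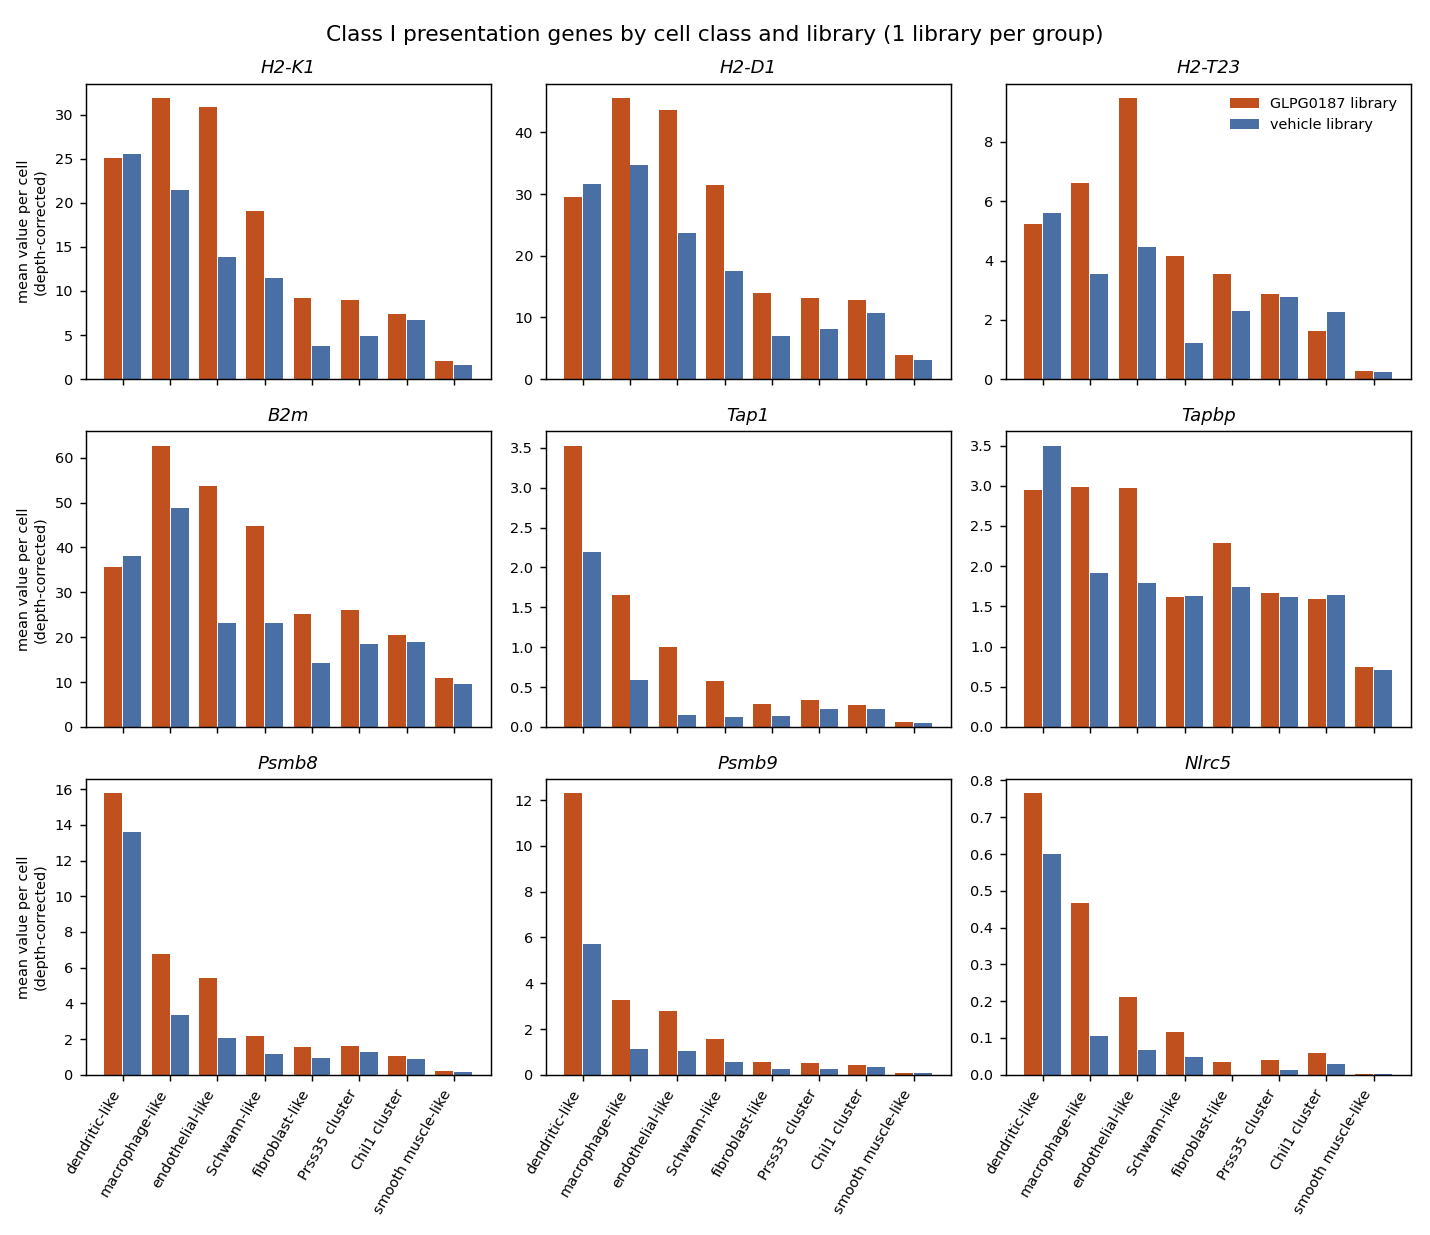
Mean depth-corrected value per cell of each of the 9 genes in 8 cell classes, GLPG0187 library in orange and vehicle library in blue, with a separate linear axis for each gene. In each gene and library the highest bar is that of dendritic-like, macrophage-like or endothelial-like cells, and the lowest that of smooth muscle-like cells except for Nlrc5 in the vehicle library. The dendritic-like and Schwann-like bars rest on 10 to 41 cells a library.

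H2-D1 and B2m were highest in macrophage-like cells, and the immunoproteasome genes, Tap1 and Nlrc5 in dendritic-like cells. H2-D1, the second classical heavy chain, averaged 45.6 in GLPG0187 and 34.7 in vehicle macrophage-like cells, the highest mean of any class in both libraries. B2m, the light chain shared by all class I molecules, was also highest there, at 62.7 and 48.7. Psmb8, an immunoproteasome subunit, had its highest mean in dendritic-like cells, at 15.8 in GLPG0187 and 13.6 in vehicle cells, and averaged 6.79 and 3.33 in macrophage-like cells. Psmb9, the subunit that sits beside Tap1 in the genome, averaged 12.3 and 5.70 in dendritic-like cells and 3.29 and 1.12 in macrophage-like cells. Dendritic-like cells, a class of professional antigen-presenting cells, number 17 GLPG0187 and 10 vehicle cells. Tap1 and Nlrc5 were highest in dendritic-like cells in both libraries too, with Tap1 at 3.53 and 2.20 and Nlrc5 at 0.765 and 0.60. H2-K1 was highest in macrophage-like cells of the GLPG0187 library but in dendritic-like cells of the vehicle library (25.5). Fibroblast-like cells, the Prss35 cluster and the Chil1 cluster stood in opposite orders, with H2-K1 at 9.18, 8.99 and 7.33 in the GLPG0187 library, against 3.76, 4.85 and 6.73 in the vehicle library.

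Genes at least 1.5-fold apart between classes in both libraries were counted by size only. All 8 measured genes were higher in macrophage-like than in smooth muscle-like cells, where 17.3% of all measured genes were. The count was 8 of 8 for fibroblast-like cells (15.8% of all genes), 8 of 8 for the Prss35 cluster (18.5%), 7 of 7 for endothelial-like cells (15.7%), 7 of 7 for the Chil1 cluster (12.4%), 7 of 7 for dendritic-like cells (14.4%) and 6 of 6 for Schwann-like cells (18.5%). A gene counts as measured between classes where its values summed over both classes reach 100 in each library, and between libraries where its values summed over both libraries reach 100 in a class. Relative to fibroblast-like cells, 7 of 8 were higher in macrophage-like cells (17% of all genes) and 6 of 8 in endothelial-like cells (16.2%). Tapbp, which encodes tapasin, was the flattest of these genes, at 1.27-fold (GLPG0187) and 1.09-fold (vehicle) for macrophage-like over fibroblast-like cells. Endothelial-like cells were above macrophage-like cells in both libraries for 0 of 8 (29.3% of all genes) and below for 1 of 8, Tap1 (20%). B2m averaged 53.8 in endothelial-like and 62.7 in macrophage-like cells of the GLPG0187 library, but 23.2 and 48.7 in the vehicle library. H2-T23 alone had the higher mean in endothelial-like cells, at 9.49 against 6.62 in the GLPG0187 library and 4.45 against 3.55 in the vehicle library. Dendritic-like cells were above macrophage-like cells for 3 of 8 (8.4% of all genes), namely Psmb8, Psmb9 and Tap1.

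Between the libraries, none of the 9 genes was at least 1.5-fold lower in any class. Of all measured genes 1.17% were lower in fibroblast-like cells, 3.8% in endothelial-like, 3.12% in macrophage-like, 2.77% in smooth muscle-like, 2.03% in modulated and 1.64% in other smooth muscle-like, 6% in Schwann-like and 9.86% in dendritic-like cells, 1.5% in the Prss35 cluster and 1.49% in the Chil1 cluster.

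Fibroblast-like cells of the GLPG0187 library carried more class I transcript than those of the vehicle library. The 2 classical heavy chains and B2m stood 1.75-fold to 2.44-fold higher, 7 of 8 measured genes were at least 1.5-fold higher, and none was at least 1.5-fold lower. In this class 2.54% of all 10201 measured genes were at least 1.5-fold higher. The median log2 ratio of GLPG0187 over vehicle was 0.90 over the 8 genes and -0.03 over all genes. H2-K1 had a log2 ratio of 1.28 from the means given above. H2-D1 averaged 13.9 in GLPG0187 and 6.94 in vehicle cells (log2 ratio 1.0), and B2m averaged 25.3 and 14.3 (0.81). H2-T23, a non-classical heavy chain that presents signal peptides to natural killer receptors, averaged 3.56 and 2.30 (0.62).

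The peptide supply genes of fibroblast-like cells gave the same picture at lower levels. Tap1, a subunit of the peptide transporter, averaged 0.290 in GLPG0187 and 0.140 in vehicle cells (log2 ratio 1.04), and was above 0 in 19.4% (95% interval 17.1 to 22) and 12.1% (10.0 to 14.5) of cells. Psmb9 averaged 0.560 and 0.270 (1.04), with 33.6% (30.7 to 36.6) and 19.7% (17.1 to 22.5) of cells above 0. Psmb8 averaged 1.53 and 0.945 (0.69). Tapbp, the exception, averaged 2.29 and 1.74 (0.39). Nlrc5, the class I transactivator, was above 0 in 28 of 1039 GLPG0187 cells (2.69%, 1.80 to 3.87) and in 0 of 859 vehicle cells, where a limit of 3 cells allows a share of up to 0.349% with a value above 0. Intervals in brackets are exact 95% Clopper-Pearson intervals, and intervals and this limit cover counting error only, in values already corrected for depth.

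Endothelial-like cells, the lining cells of vessels, had all of their measured class I genes past 1.5-fold. These 8 genes were higher in the GLPG0187 library, with a median log2 ratio of 1.16, where 5.02% of all 4863 measured genes were higher and the median of all genes was -0.01. H2-K1 averaged 30.9 in GLPG0187 and 13.9 in vehicle cells (log2 ratio 1.13), H2-D1 43.7 and 23.7 (0.86), H2-T23 9.49 and 4.45 (1.07) and B2m 53.8 and 23.2 (1.19). Tapbp, under 1.5-fold in fibroblast-like cells, here averaged 2.98 and 1.79 (0.71). Psmb8 averaged 5.43 and 2.05 (1.38) and Psmb9 2.80 and 1.04 (1.4). Tap1 stood furthest apart, at 1.01 and 0.154 (2.61), and was above 0 in 45.6% (37.7 to 53.7) of 160 GLPG0187 cells and 12.5% (6.83 to 20.4) of 104 vehicle cells. The vehicle value of Tap1 rests on a summed value of 16. Nlrc5 did not reach the floor of 100, and was above 0 in 24 of 160 GLPG0187 cells and 6 of 104 vehicle cells.

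In macrophage-like cells Tap1, Psmb8 and Psmb9 had larger ratios than the classical heavy chains and B2m. Of 9 measured genes 6 were at least 1.5-fold higher in the GLPG0187 library, with a median log2 ratio of 0.87, where 6.45% of all 6407 measured genes were higher. H2-K1 averaged 31.9 in GLPG0187 and 21.5 in vehicle cells (log2 ratio 0.54), H2-D1 45.6 and 34.7 (0.37) and B2m 62.7 and 48.7 (0.34), all under 1.5-fold. H2-T23 averaged 6.62 and 3.55 (0.87). Tap1 averaged 1.66 and 0.587 (1.46), Psmb9 3.29 and 1.12 (1.52), Psmb8 6.79 and 3.33 (1.0) and Tapbp 2.98 and 1.92 (0.61). Nlrc5 could be measured between the libraries in this class alone. It averaged 0.468 in GLPG0187 and 0.106 in vehicle cells (log2 ratio 2.05), and was above 0 in 32.1% (27.1 to 37.3) and 9.5% (5.63 to 14.8) of cells. In smooth muscle-like cells, the lowest class for this gene in the GLPG0187 library, it was above 0 in 0.297% (0.0964 to 0.691) of GLPG0187 and 0.118% (0.00299 to 0.657) of vehicle cells.

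**Figure D2:**
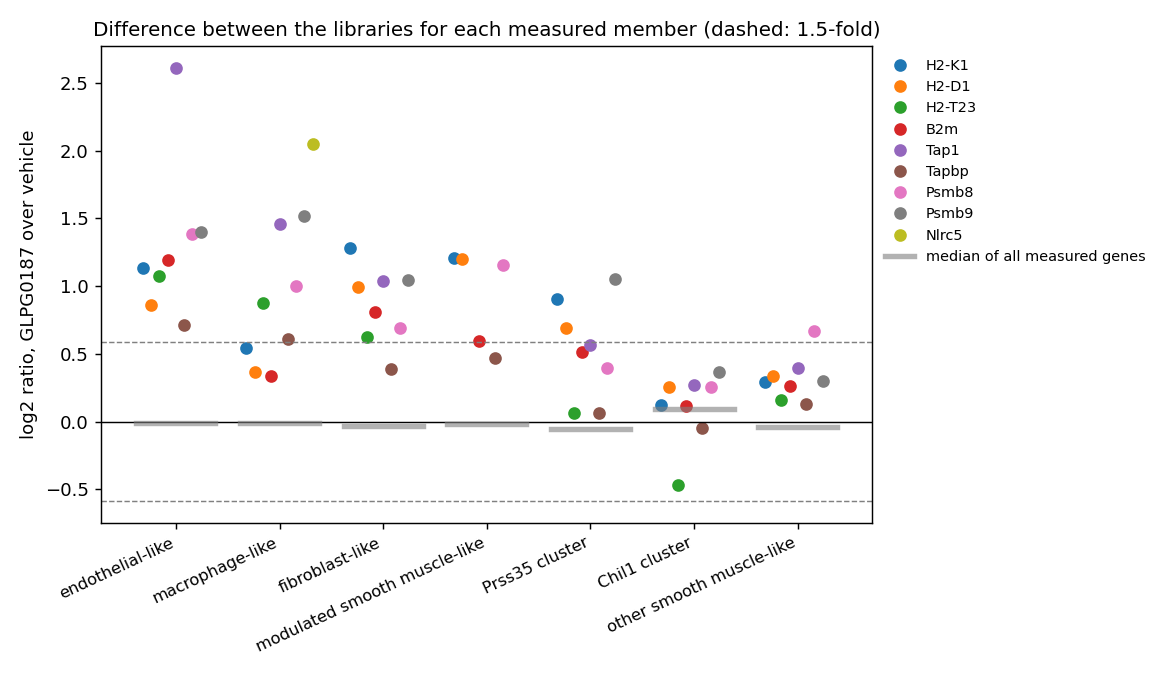
Log2 ratio of GLPG0187 over vehicle for each measured gene (coloured points) in 7 groups of cells, with dashed lines at 1.5-fold and a grey bar at the median of all measured genes. Points of endothelial-like and fibroblast-like cells lie above 0 throughout, while those of the Chil1 cluster lie on both sides of 0, down to -0.47 for H2-T23, and of the smooth muscle-like cells outside the modulated group Psmb8 alone lies past 1.5-fold, at 0.67.

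Smooth muscle-like cells showed little difference. None of 8 measured genes was at least 1.5-fold higher or lower, the median log2 ratio was 0.24, and 0.539% of all 10770 measured genes were higher. H2-K1 averaged 2.03 in GLPG0187 and 1.63 in vehicle cells (log2 ratio 0.32), H2-D1 3.94 and 3.03 (0.38) and B2m 10.8 and 9.48 (0.20). Psmb8, at 0.236 and 0.163 (0.53), came closest to 1.5-fold. Modulated smooth muscle-like cells, a sub-cluster led by Cytl1, Ahsg and Fetub that carried matrix and other markers of modulated muscle, stood apart from the others of their class. There H2-K1 averaged 4.48 in 83 GLPG0187 cells and 1.95 in 143 vehicle cells (1.21), H2-D1 7.55 and 3.32 (1.20), Psmb8 0.699 and 0.315 (1.16) and B2m 20.7 and 13.8 (0.60). Those 4 of 5 measured genes were at least 1.5-fold higher (1.7% of all genes), with Tapbp at 0.47. Among the other smooth muscle-like cells the count was 1 of 8 (0.549% of all genes), Psmb8 at 0.212 and 0.132 (0.67). Modulated cells were above the other smooth muscle-like cells in both libraries for 3 of 6 measured genes (8.18% of all genes), namely B2m, Tapbp and Psmb8, and below fibroblast-like cells for 7 of 8 (11.3%).

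In its median ratio the Prss35 cluster lay between smooth muscle-like and fibroblast-like cells, and the Chil1 cluster was nearly level. In the Prss35 cluster 3 of 8 measured genes were at least 1.5-fold higher in the GLPG0187 library (1.33% of all genes), with a median log2 ratio of 0.54. They were H2-K1 at 8.99 in GLPG0187 and 4.85 in vehicle cells (0.91), H2-D1 at 13.1 and 8.17 (0.69), and Psmb9 at 0.528 and 0.256 (1.05). H2-T23 averaged 2.87 and 2.78 (0.06), unlike the classical chains. In the Chil1 cluster 0 of 8 were higher (4.39% of all genes) and the median was 0.19. Here H2-T23 had the lowest ratio, at 1.63 in GLPG0187 and 2.27 in vehicle cells (-0.47). In Schwann-like cells 5 of 6 measured genes were higher (6.68% of all genes), and in dendritic-like cells 1 of 6 (7.74%), Psmb9, but both rest on few cells. The Schwann-like class also carried leukocyte transcripts, with a summed level over 10 of them of 11.5 in GLPG0187 and 7.24 in vehicle cells. Among these, Cd52 summed to 151 over 3 GLPG0187 cells and Lyz2 to 282 over 10 vehicle cells. H2-K1 averaged 19.0 in GLPG0187 and 11.5 in vehicle Schwann-like cells, but 9.18 and 15.4 among 11 and 20 such cells with Y-linked transcripts and no Xist.

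The differences were seen at the quartiles as well as in the means. For H2-K1 in fibroblast-like cells the lower quartile, median and upper quartile were 3, 6 and 12 in the GLPG0187 library, against 2, 3 and 5 in the vehicle library. In endothelial-like cells they were 19, 27.5 and 39 in the GLPG0187 library, against 5, 12 and 19 in the vehicle library, so that the lower quartile of one library met the upper quartile of the other. For B2m in endothelial-like cells the median was 49.5 in GLPG0187 and 19.0 in vehicle cells. In smooth muscle-like cells the H2-K1 quartiles were 0, 1 and 2 in both libraries. B2m was above 0 in 100% of fibroblast-like cells of both libraries, so its difference there lies in the level per cell and not in the share of cells with a transcript.

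**Figure D3:**
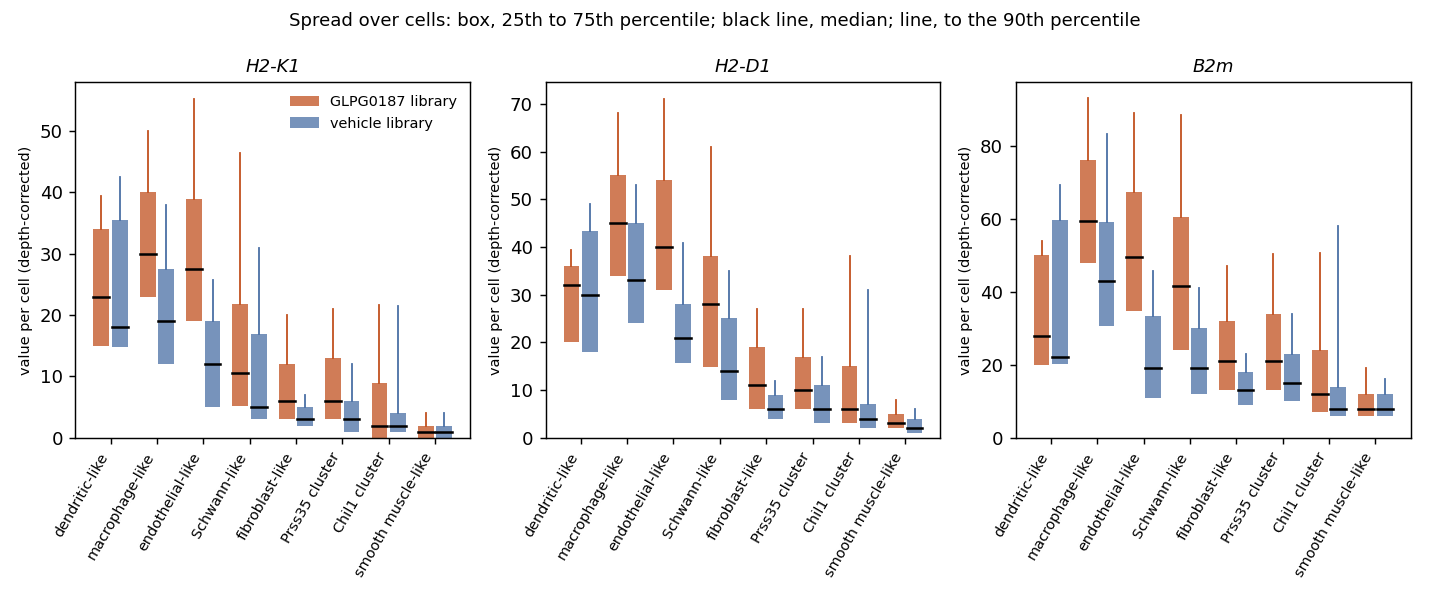
Values per cell of H2-K1, H2-D1 and B2m in 8 cell classes, GLPG0187 in orange and vehicle in blue, as boxes between quartiles with the median in black and a line to the 90th percentile. Boxes of endothelial-like cells stand nearly clear of each other (H2-K1 medians 27.5 and 12), while those of smooth muscle-like cells coincide.

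Across cells of a class the classical heavy chains and B2m were correlated, in fibroblast-like cells more in the GLPG0187 library. Pearson correlations between H2-K1 and H2-D1 were 0.663 over 1039 GLPG0187 and 0.235 over 859 vehicle fibroblast-like cells, and between H2-K1 and B2m 0.648 and 0.198. The median over 28 gene pairs was 0.263 in the GLPG0187 library, against 0.0943 in the vehicle library. In the Prss35 cluster H2-K1 and H2-D1 correlated at 0.719 in GLPG0187 and 0.616 in vehicle cells, in macrophage-like cells at 0.704 and 0.713, and in smooth muscle-like cells at 0.490 and 0.357. Cells of a library share their preparation, low values weaken correlations, and H2-K1 and H2-D1 are close paralogs between which reads may be split, so these figures are descriptions.

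Other genes of the pathway were read from fixed lists. Each count of a list is to be read against the share of all measured genes at least 1.5-fold higher in that class, which was 5.02% in endothelial-like, 6.45% in macrophage-like, 2.54% in fibroblast-like and 0.539% in smooth muscle-like cells and 1.33% in the Prss35 cluster. Of the other class I heavy chains, 5 of 5 measured were at least 1.5-fold higher in GLPG0187 endothelial-like cells (median log2 ratio 1.31), 4 of 5 in macrophage-like cells (0.92), 2 of 5 in fibroblast-like cells (0.58), 3 of 6 in the Prss35 cluster (0.51) and 0 of 4 in smooth muscle-like cells (0.00). H2-Q7, which encodes a Qa-2 antigen, averaged 6.71 in GLPG0187 and 2.01 in vehicle endothelial-like cells (1.71), and in fibroblast-like cells 0.223 and 0.0256 (3.06). H2-Q4 averaged 0.886 and 0.378 in fibroblast-like cells (1.22). Reads of the H2-Q and H2-T genes may also be shared among near-identical copies. H2-M3, whose promoter window shares the spaced boxes printed above, averaged 0.919 in GLPG0187 and 0.385 in vehicle endothelial-like cells (1.21), but 0.448 and 0.390 in fibroblast-like cells (0.19).

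The immunoproteasome could be set against the constitutive proteasome. Psmb10, the last of the 3 inducible catalytic subunits, averaged 2.52 in GLPG0187 and 1.07 in vehicle endothelial-like cells (1.21). In macrophage-like cells it averaged 2.73 and 1.69 (0.66), and in fibroblast-like ones 1.36 and 0.943 (0.52). The constitutive subunits that these replace were level. Psmb5, the counterpart of Psmb8, averaged 2.59 and 2.43 in endothelial-like cells (0.07), and among fibroblast-like ones 1.79 and 1.87 (-0.06). Psmb6, the counterpart of Psmb9, averaged 2.76 and 2.62 in endothelial-like cells (0.06), and among fibroblast-like ones 2.25 and 2.51 (-0.16). The wider list of 14 measured subunits holds Psmb5, Psmb6, Psmb7 and other core subunits that both forms share. It is therefore not specific to the constitutive proteasome. Of these 14, 0 were at least 1.5-fold higher or lower in each of endothelial-like, macrophage-like, fibroblast-like and smooth muscle-like cells and the Prss35 cluster. The activator subunits Psme1 and Psme2 stood at 0.72 and 0.73 in endothelial-like cells and at 0.25 and 0.24 in fibroblast-like cells. With Psmb10, Psme3 and Pomp this list had 3 of 4 higher in endothelial-like cells, 2 of 5 in macrophage-like cells and 0 of 5 in fibroblast-like cells, the Prss35 cluster and smooth muscle-like cells.

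Other loading factors differed from class to class. Tap2, the partner of Tap1 in the transporter, averaged 1.84 in GLPG0187 and 0.740 in vehicle endothelial-like cells (1.28) and 1.0 and 0.447 in macrophage-like cells (1.12), but 0.673 and 0.526 in fibroblast-like cells (0.35), where Tap1 was at 1.04. Of the general chaperones, Calr averaged 10.1 in GLPG0187 and 6.65 in vehicle endothelial-like cells (0.59), and its log2 ratio was -0.05 in macrophage-like and 0.26 in fibroblast-like cells. Over these classes Canx had log2 ratios of -0.09 to 0.15 and Pdia3 of -0.09 to 0.30. Tapbpl, a relative of tapasin, averaged 0.669 in GLPG0187 and 0.394 in vehicle endothelial-like cells (0.72), and had log2 ratios of 0.87 in macrophage-like and 0.45 in fibroblast-like cells. Of 9 peptide loading genes 3 were at least 1.5-fold higher in endothelial-like cells, 2 in macrophage-like cells and 0 in fibroblast-like cells, the Prss35 cluster and smooth muscle-like cells (medians 0.37, -0.05, 0.24, 0.08 and -0.04).

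In endothelial-like, macrophage-like and fibroblast-like cells some upstream regulators and most interferon-response genes were higher. Smaller shares of the interferon-response list were higher in the Prss35 cluster and smooth muscle-like cells. Of the regulators 6 of 18 measured were at least 1.5-fold higher in endothelial-like cells, 5 of 22 in macrophage-like cells, 6 of 24 in fibroblast-like cells, 1 of 24 in the Prss35 cluster and 2 of 23 in smooth muscle-like cells. The shares of all genes were 5.02%, 6.45%, 2.54%, 1.33% and 0.539% in the same order. Irf1, a direct activator of class I genes, averaged 1.5 in GLPG0187 and 0.606 in vehicle endothelial-like cells (1.27) and, among fibroblast-like cells, 2.01 and 0.953 (1.07), but 1.29 and 1.47 in macrophage-like cells (-0.21). Of the interferon-response list 20 of 23 measured genes were at least 1.5-fold higher in endothelial-like cells (median log2 ratio 1.89), 23 of 26 in macrophage-like cells (1.82), 18 of 22 in fibroblast-like cells (0.91), 9 of 23 in the Prss35 cluster (0.36) and 7 of 17 in smooth muscle-like cells (0.40). One was lower, Cxcl9, a chemokine, at 0.774 in GLPG0187 and 3.07 in vehicle macrophage-like cells (-2.01). Cxcl10 was listed at 0 in vehicle endothelial-like cells, and without it the median of that class was 1.84. MHC class II genes, which serve presentation to CD4 T cells, were higher for 6 of 6 in endothelial-like cells (3.20), 6 of 6 in macrophage-like cells (0.76), 4 of 4 in fibroblast-like cells (1.58), 0 of 6 in the Prss35 cluster (0.03) and 2 of 4 in smooth muscle-like cells (0.71). Cd74, the class II invariant chain, averaged 12.8 in GLPG0187 and 1.19 in vehicle endothelial-like cells (3.40). The interferon and class II lists also differed between the libraries in earlier work on these data, so they are not independent of the choice of genes here.

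**Figure D4:**
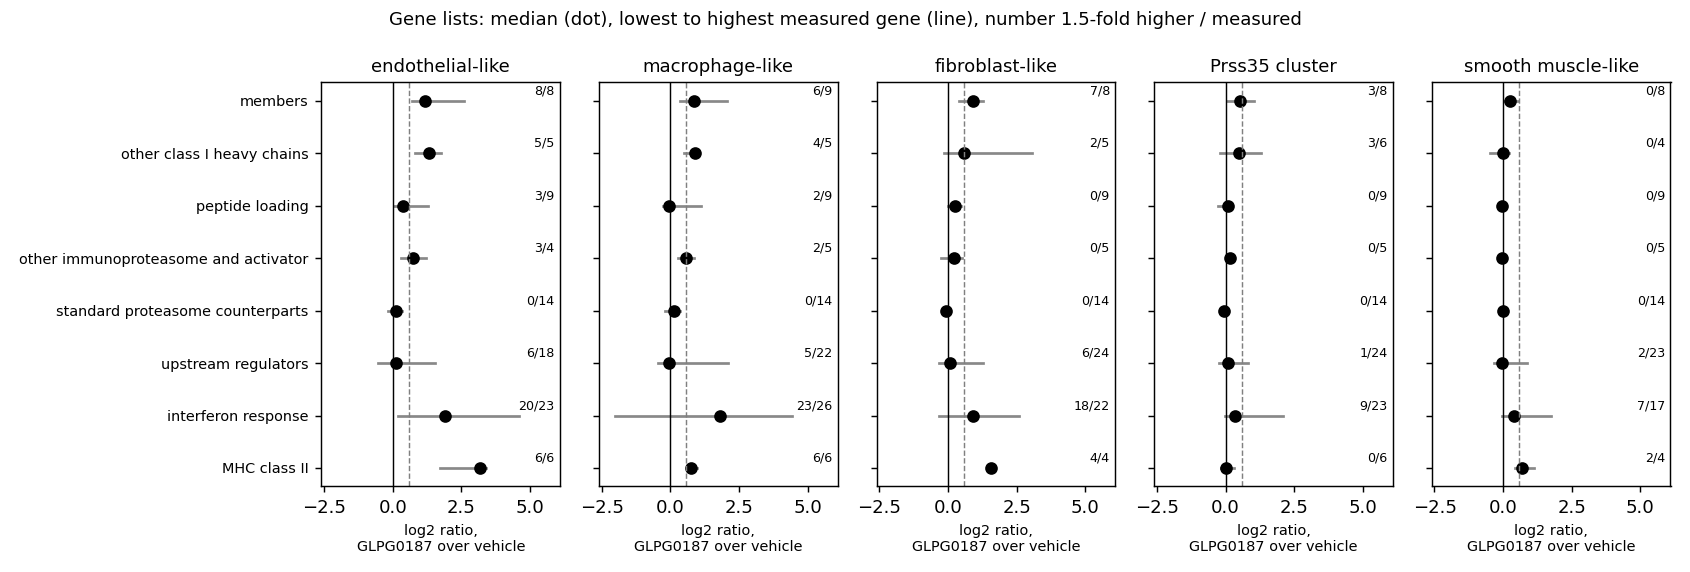
Median log2 ratio of GLPG0187 over vehicle (dot) and range over measured genes above 0 in both libraries (line) of 8 gene lists in 5 cell classes, with the number at least 1.5-fold higher of those measured. The list of Psmb5, Psmb6, Psmb7 and other core proteasome subunits sits near 0 in every panel. The class I, interferon and class II lists lie to the right in endothelial-like, macrophage-like and fibroblast-like cells.

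Leukocyte RNA was higher in most non-immune classes of the GLPG0187 library. The summed level of 10 leukocyte transcripts was 0.723 in GLPG0187 and 0.478 in vehicle fibroblast-like cells, with 9 of 10 higher and none at 0, against 420 and 423 in macrophage-like cells. It was 0.613 and 0.433 in endothelial-like cells (7 of 10 higher, 1 at 0 in vehicle cells) and 0.641 and 0.386 in the Prss35 cluster (10 of 10 higher), but 0.539 and 0.572 in smooth muscle-like cells (6 of 10 higher). Yet the share of cells with none of the 10 was lower in the GLPG0187 library there too. It was 61.5% in GLPG0187 and 70.1% in vehicle smooth muscle-like cells, beside 58.3% and 68.9% in fibroblast-like cells. In cells with none of these 10 transcripts the log2 ratio of H2-K1 was 1.22 in fibroblast-like cells, 1.12 in endothelial-like cells and 0.84 in the Prss35 cluster, and 6 of 8 (2% of all genes), 8 of 8 (4.42%) and 4 of 8 genes (1.14%) were at least 1.5-fold higher. That restriction was chosen after seeing the data. In cells that also lacked the 3 class II transcripts of the leukocyte list the log2 ratio of H2-K1 was 1.14, 0.78 and 0.68. The counts there were 6 of 8 in fibroblast-like cells (2.13% of all genes), 5 of 6 in 21 GLPG0187 and 52 vehicle endothelial-like cells (8.73%) and 1 of 6 in the Prss35 cluster (0.896%). The part of leukocyte RNA in the other results was not tested.

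Each pool mixed males and females, so cells with Xist and no Y-linked transcript (Xist-only) and cells with Y-linked transcripts and no Xist (Y-only) come from different animals. In fibroblast-like cells H2-K1 averaged 12.1 in 327 GLPG0187 and 3.47 in 304 vehicle Xist-only cells (log2 ratio 1.80), and 7.87 in 552 GLPG0187 and 3.99 in 449 vehicle Y-only cells (0.97). Thus both kinds of cell were higher in the GLPG0187 library, the Xist-only cells by more. Over 5 classes the log2 ratio was larger in Xist-only than in Y-only cells for 36 of 37 values that both kinds of cell gave. The exception was Tapbp in macrophage-like cells (0.40 and 0.64). These values repeat the same genes over classes of the same animals, so they are not separate observations. The share of all measured genes with a larger ratio in Xist-only cells is not given, so the count has no background beside it. Within the GLPG0187 library H2-K1 of Xist-only over Y-only fibroblast-like cells had a log2 ratio of 0.65, against -0.17 within the vehicle library. Counting genes at least 1.5-fold higher in the GLPG0187 library, fibroblast-like cells had 7 of 8 among Xist-only (3.5% of all genes) and 5 of 8 among Y-only cells (2.38%). Endothelial-like cells had 7 of 7 (8.58%) and 6 of 7 (6.87%), and macrophage-like cells 6 of 8 (10.4%) and 6 of 9 (6.6%).

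The unnamed clusters also held both kinds of cell. In the Chil1 cluster H2-K1 averaged 7.23 in 30 GLPG0187 and 2.51 in 41 vehicle Xist-only cells (1.54), but 7.60 and 6.76 in Y-only cells (0.17). In the Prss35 cluster 7 of 8 genes were at least 1.5-fold higher among Xist-only cells (2.24% of all genes) and 2 among Y-only cells (1.24%). H2-T23 there averaged 2.99 in GLPG0187 and 1.83 in vehicle Xist-only cells (0.73), but 2.92 and 3.44 in Y-only cells (-0.22). In smooth muscle-like cells 1 of 6 among Xist-only (1.02% of all genes) and 0 of 7 among Y-only cells (0.677%) was higher, and H2-T23 and Psmb9 were slightly lower among Y-only cells (-0.11 and -0.10). The labels do not say how many animals stand behind each kind of cell.

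**Figure D5:**
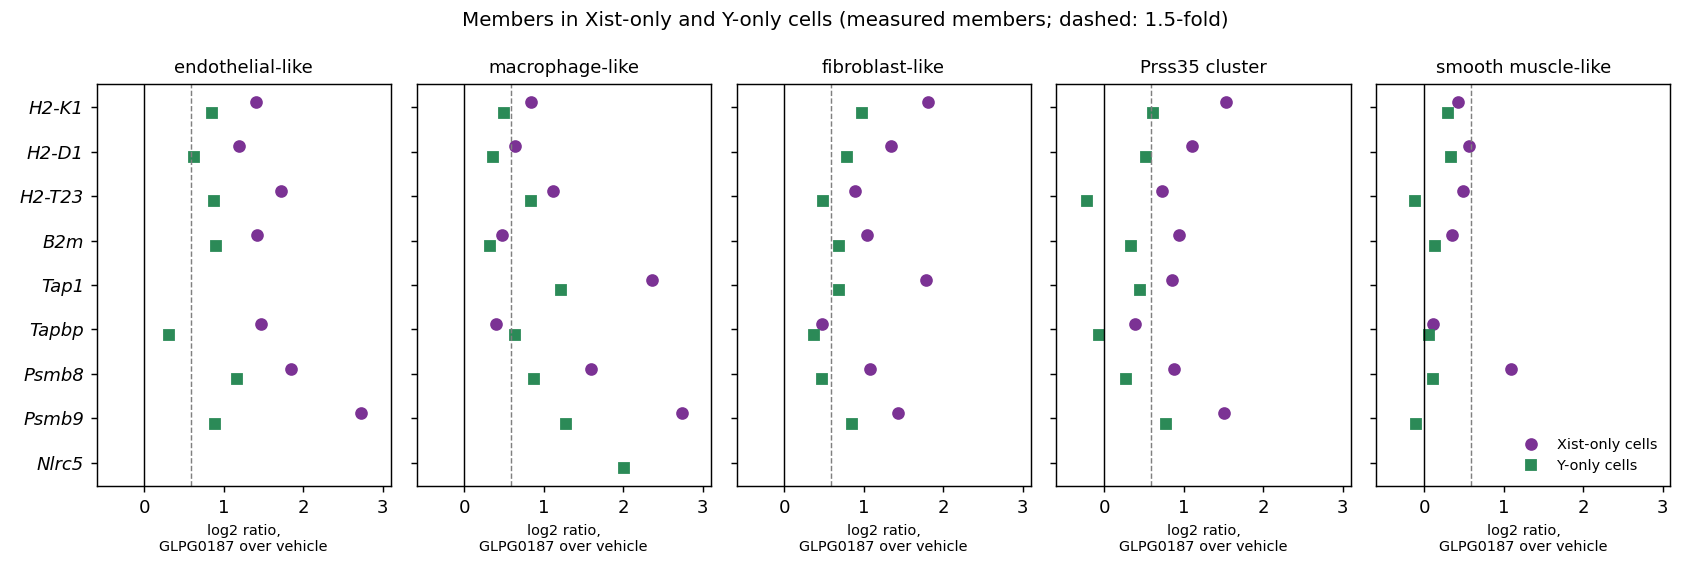
Log2 ratio of GLPG0187 over vehicle for each measured gene in Xist-only cells (circles) and Y-only cells (squares) of 5 cell classes, with a dashed line at 1.5-fold. Circles lie to the right of squares for 36 of 37 pairs, and in endothelial-like, macrophage-like and fibroblast-like cells both lie above 0. The pairs repeat the same genes over classes, and the share over all genes is not given.

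Sub-clusters show where within a class the difference lay. Among endothelial-like cells, those led by Ccl21a, Mmrn1 and Lyve1 carried 7 of 7 lymphatic markers. Their H2-K1 averaged 24.8 in 88 GLPG0187 and 7.79 in 53 vehicle cells (log2 ratio 1.66), with 7 of 7 measured genes at least 1.5-fold higher (4.79% of all genes). Cells led by Cytl1, Sfrp1 and Spon1 were higher in both libraries, at 40.2 in 50 GLPG0187 and 21.3 in 26 vehicle cells (0.89), again with 7 of 7 (6.61%). Cells led by Rgcc, Rgs5 and C1qtnf9 had 34.1 in 22 GLPG0187 and 19.1 in 25 vehicle cells (0.80), with 6 of 6 (5.74%). All 3 endothelial sub-clusters thus went the same way.

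Macrophage-like sub-clusters did not all do so for the heavy chains. The number at least 1.5-fold higher was 6 of 8 in cells led by Lyve1 (4.95% of all genes), 3 of 8 in those led by Mmp12 (5.7%), 5 of 8 in those led by Plac8 (12.9%) and 4 of 8 in those led by Dcn (8.76%). Those led by Plac8, Ly6c2 and Spp1 had H2-K1 at 32.4 in 84 GLPG0187 and 31.6 in 25 vehicle cells (0.00) and B2m at 72.8 and 78.4 (-0.14). Their Tap1 still stood at 2.56 and 1.0 (1.28) and Psmb9 at 4.63 and 1.76 (1.34). Those led by Lyve1, Folr2 and Ccl8, markers of resident macrophages, had H2-K1 at 33.9 in 121 GLPG0187 and 18.5 in 71 vehicle cells (0.85) and B2m at 62.6 and 41.1 (0.59). In all 4 macrophage-like sub-clusters Psmb9 and Tap1 were at least 1.5-fold higher, with log2 ratios of 1.33 to 1.5 and 0.91 to 1.59. Fibroblast-like sub-clusters ranged in H2-K1 from a log2 ratio of 0.79 (cells led by Dner, Fgf9 and Adm) to 1.46 (cells led by Tnfaip2, Ptx3 and Ifi205, at 13.4 in 272 GLPG0187 and 4.80 in 200 vehicle cells).

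Over the 9 clusters with at least 20 cells in each library, taken in both libraries (18 points), the genes outside the lists most like the mean profile of the 9 genes were Rnf213, Trim30a, St3gal1, Zbp1, Il15, Parp12, Parp14 and Gsdmd. Pearson r was 0.952 for Rnf213, a large ubiquitin ligase, 0.940 for Trim30a, 0.936 for St3gal1, a sialyltransferase, and 0.933 for Zbp1, a sensor of Z-form nucleic acids. Il15, a cytokine for natural killer and CD8 T cells, stood at 0.927. H2-K1 was most like St3gal1, Rnf213 and Parp14, B2m most like Parp12, Zbp1 and Ifih1, and Nlrc5 most like Il18bp, Ogfr and Samd9l. Among the 9 genes themselves H2-K1 and H2-D1 were most alike (r = 0.996) and H2-T23 and Nlrc5 least (0.670). Profiles were log2 of the mean value plus 0.1, and Nlrc5 averaged under 0.1 in most classes of the vehicle library. Much of its profile is therefore the added value, which limits what its r values can show. The points share libraries and cell classes, so these are orderings and not tests.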

How the data were processed

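Single-cell RNA was measured in 2 libraries (10x Genomics 3' version 3), 1 per group, grouped by the treatment label, from cells digested out of the tissue and sorted away from debris. Per the submitters' processing notes, Cell Ranger, Seurat and mm10 were used. The deposited values are whole numbers with nearly even totals per cell, so corrected for depth by a method not given in the sources used here. These deposited score values, as the authors left them, were used with no count model.

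Scrublet (scanpy 1.11.5) removed 48 GLPG0187 cells (1.09%) and 16 vehicle cells (0.540%). Values scaled to 10000 per cell, 2000 variable genes without 100 listed class I presentation, proteasome, regulator and interferon genes, 30 components and Leiden resolution 0.5 gave 10 clusters. A cluster was named when at least 3 markers and 70% of a list, each in 25% of its cells, lay over 3 times above the median cluster. It stayed unnamed where another list held more of its 10 leading genes than that list did. The Chil1 cluster passed 9 of 12 fibroblast markers but stayed unnamed by this second condition.

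Values were summed per class and library, divided by the class total, and compared as log2 of GLPG0187 over vehicle after adding 1 to each sum. Genes with a sum of at least 100 were measured, and 1.5-fold was counted by size only. The ratio was tested on simulated data. Named genes are the 9 genes, their direct partners, and in each list up to the 6 furthest apart in a main class. The genes, lists and sub-cluster rules were chosen with earlier results of these data known. Cells were not treated as replicates, so no p-value is given. Alternatives covered scaling, the floor, doublets, clustering and the cells used. One gene of the regulator list is not reported here.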

Additional observations from a re-analysis of the deposited data

How the results depend on the processing

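No paired analysis was possible because each group holds 1 library. Of 1620 values recomputed under the alternatives, 1468 stayed within the tolerance and 152 moved, mostly in Xist-only or Y-only cells or with a value of at least 2 required for a share, and 0 called values changed sign. The median log2 ratio of the 9 genes ranged from 0.69 to 1.21 in fibroblast-like cells over 15 settings, 0.86 to 1.47 in endothelial-like, 0.81 to 0.98 in macrophage-like, 0.24 to 0.91 in the Prss35 cluster and, over 16 settings, 0.10 to 0.46 in smooth muscle-like cells. In Xist-only cells the interferon median was 1.02 in the Prss35 cluster, 3.06 in endothelial-like, 1.62 in fibroblast-like and 0.51 in macrophage-like cells, the median of the 9 genes in the Prss35 cluster was 0.91, and 7 of its genes and 1 in smooth muscle-like cells were higher. In Y-only endothelial-like cells the interferon median was 1.34. In cells without any listed leukocyte transcript, class II included, 5 genes were higher in endothelial-like cells and 1 in the Prss35 cluster, and the endothelial interferon median was 0.85. At a log2 size of 0.32 in place of that of 1.5-fold, 6 genes were higher in the Prss35 cluster and 3 in smooth muscle-like cells. With no floor 1 gene was higher in smooth muscle-like cells and their interferon median was 1.11. Without modulated cells, an alternative added later, 1 gene was higher (0.549% of all genes). Shares of all genes at the log2 size of 0.32 and with no floor are not given, so those counts have no background beside them. The cause was not tested. The depth of the reads is unknown, and Nlrc5 reached the floor between libraries in macrophage-like cells alone.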
